A study of Mus musculus with 187 samples.

Results

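A set of 9 genes of plasma membrane repair was followed in heart transcriptomes of many mouse strains, the Hybrid Mouse Diversity Panel (HMDP), which joins classical inbred with recombinant inbred lines. The genes are Dysf, Myof, Trim72, Anxa1, Anxa2, Anxa5, Anxa6, Ano5 and Ahnak, chosen by name, and each was found by symbol and Ensembl identifier among the 36558 genes of the table. Each library came from the heart RNA of a mouse given chow for its first 8 weeks, then food rich in fat and sucrose for another 8, and taken at 16 weeks of age. Males gave 98 libraries and females 89, and 78 strains had both sexes. All groups shared the diet, the age and the tissue, and no library of mice kept on chow was analysed here. The strains of interest were A/J (1 male and 1 female library) and SJL/J (1 male and 1 female library), both known to carry mutations of Dysf. The AXB/BXA recombinant inbred strains (33 libraries, 20 strains) descend from A/J and C57BL/6J. The remaining strains were BXD (79 libraries, 45 strains), CXB (12 libraries, 6 strains), BXH (8 libraries, 6 strains) and other inbred strains (51 libraries, 27 strains, C57BL/6J included with 3 libraries). Genotypes were not used here, so that the Dysf allele of an AXB/BXA strain was not known. In A/J and in SJL/J the Dysf mutation and the rest of the strain background cannot be told apart.

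A tear in the surface membrane of a muscle cell lets calcium in, and calcium drives vesicles to the tear, where they fuse into a patch. Dysferlin (Dysf) is a calcium-binding ferlin of the muscle membrane that is needed for this fusion, and its loss in humans causes limb-girdle muscular dystrophy and Miyoshi myopathy. Myoferlin (Myof) is its close relative, best known from myoblasts and endothelial cells. Trim72, also called MG53, is a muscle protein that brings vesicles to the injury. Annexins (Anxa1, Anxa2, Anxa5 and Anxa6) bind acidic phospholipids when calcium rises and assemble at the wound. Ano5 is an anoctamin whose loss also causes a limb-girdle muscular dystrophy, and Ahnak is a very large scaffold protein that binds dysferlin and annexin A2. These roles are background and were not measured in these hearts.

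The mutations of the strains bear on the Dysf gene at chr6:84008590-84211060 (GRCm38, plus strand). In A/J a retrotransposon lies in an early intron of Dysf. In SJL/J a splice site mutation drops an exon from the mRNA. That exon is number 45 of the 55 exons of transcript Dysf-201, at chr6:84189684-84189854 on the plus strand, wholly coding, and it is shown because it is the piece known to be missing from the SJL/J message. It spans 57 codons with no remainder, of a transcript of 6660 bases, and is part of 12 of the 16 annotated Dysf transcripts.
Dysf exon 45: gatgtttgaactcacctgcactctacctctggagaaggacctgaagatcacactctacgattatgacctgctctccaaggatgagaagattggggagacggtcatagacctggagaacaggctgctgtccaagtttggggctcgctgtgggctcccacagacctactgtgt
The deposited values are per gene, so that the use of this exon in SJL/J was not measured here.

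The other genes lie at chr19:37899036-38043577 (Myof, minus strand), chr7:128003949-128011033 (Trim72, plus strand), chr19:20373428-20390944 (Anxa1, minus strand), chr9:69453620-69491795 (Anxa2, plus strand), chr3:36448923-36475894 (Anxa5, minus strand), chr11:54979108-55033445 (Anxa6, minus strand), chr7:51511029-51598709 (Ano5, plus strand) and chr19:8989284-9076914 (Ahnak, plus strand), all on GRCm38. RefSeq promoter windows of 300 bases around the start (GRCm38.p6) were matched by symbol for 8 of the 9 genes, all but Anxa6. Of these, 5 are shown: Dysf because it had the largest F of the 9 for strain, which sets the spread between strains against that within them, and the pairs Trim72 and Ano5, and Anxa1 and Anxa2, because the levels of each pair moved together across strains, as described further on. Other pairs moved together as well, such as Myof with Anxa1 (r = 0.538) and Anxa1 with Anxa5 (r = 0.472), and not all their windows are shown. Capitals mark a GC box, GGGCGG, in the Dysf window and E-boxes, CANNTG, in those of Trim72 and Ano5. In the windows of Anxa1 and Anxa2 they mark TATAAA, known as the TATA box. Each motif was searched on both strands, and more motifs were searched than are marked.
Dysf promoter, chr6:84008348-84008647, plus strand: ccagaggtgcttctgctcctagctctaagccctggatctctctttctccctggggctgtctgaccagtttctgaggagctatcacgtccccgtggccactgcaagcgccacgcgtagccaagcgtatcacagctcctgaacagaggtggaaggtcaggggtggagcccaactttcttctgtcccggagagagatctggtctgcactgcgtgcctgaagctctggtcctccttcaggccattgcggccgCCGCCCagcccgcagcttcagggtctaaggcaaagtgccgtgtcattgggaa
Trim72 promoter, chr7:128004128-128004427, plus strand: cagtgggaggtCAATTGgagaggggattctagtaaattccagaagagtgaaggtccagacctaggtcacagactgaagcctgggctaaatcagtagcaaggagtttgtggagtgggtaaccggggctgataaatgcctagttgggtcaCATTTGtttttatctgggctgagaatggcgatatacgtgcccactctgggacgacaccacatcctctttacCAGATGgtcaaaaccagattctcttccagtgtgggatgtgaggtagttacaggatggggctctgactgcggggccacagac
Ano5 promoter, chr7:51510779-51511078, plus strand: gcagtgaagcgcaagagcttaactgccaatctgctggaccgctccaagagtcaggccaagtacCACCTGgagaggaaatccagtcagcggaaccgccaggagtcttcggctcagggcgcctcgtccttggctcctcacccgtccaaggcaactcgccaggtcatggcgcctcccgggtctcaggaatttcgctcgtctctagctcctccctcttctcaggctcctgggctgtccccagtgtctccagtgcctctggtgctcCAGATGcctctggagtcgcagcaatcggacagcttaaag
Anxa1 promoter, chr19:20390622-20390921, minus strand: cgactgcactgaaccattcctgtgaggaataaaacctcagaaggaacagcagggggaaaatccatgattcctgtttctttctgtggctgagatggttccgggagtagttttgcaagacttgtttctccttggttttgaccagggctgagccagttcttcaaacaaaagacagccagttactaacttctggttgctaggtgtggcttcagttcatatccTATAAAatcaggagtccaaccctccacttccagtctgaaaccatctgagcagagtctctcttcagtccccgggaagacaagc
Anxa2 promoter, chr9:69453433-69453732, plus strand: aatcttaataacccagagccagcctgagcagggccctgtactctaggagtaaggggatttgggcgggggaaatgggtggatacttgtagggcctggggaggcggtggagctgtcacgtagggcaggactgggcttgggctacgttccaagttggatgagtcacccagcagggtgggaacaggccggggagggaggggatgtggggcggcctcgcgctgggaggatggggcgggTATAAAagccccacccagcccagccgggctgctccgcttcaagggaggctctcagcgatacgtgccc
The Trim72 window held 3 E-boxes and the Ano5 window 2, and CANNTG occurs in 72.3% of all 32851 promoter windows of this length. The Anxa1 and Anxa2 windows held 1 TATA box each, 32 and 17 bases before the start, and TATAAA occurs in 13.6% of all windows. The windows of Anxa5 and Myof, whose levels also moved with Anxa1, held no TATAAA. The first Dysf window held 1 GC box, which occurs in 35.7% of all windows, and neither Dysf window held TATAAA. A match of letters is a description of the window and says nothing of a factor bound there.

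The libraries held between 28.99 M and 80.44 M estimated counts, 46.1 M on average with an SD of 7.64 M. Of the counts of a library, between 20.7% and 61.3% came from genes of the mitochondrial genome. Levels are given as CPM, counts scaled to the depth of a library, after TMM scaling, which sets the libraries on a common scale through the bulk of their genes. TPM, which divides by transcript length, is used where genes are compared with each other. In 14 libraries of 12 strains the counts fell with transcript length, with a slope of log2 CPM on log2 length from -0.482 to -0.226, against -0.177 to 0.131 in all others. They comprised 7 BXD, 3 CXB, 3 other inbred and 1 AXB/BXA libraries, and no A/J or SJL/J library. Ahnak, the longest message, had a median of 260 CPM in these libraries against 614 CPM in the others, and where leaving them out changed a call described here, the value without them is given. Markers of cardiomyocytes were present in every library, with Myh6 between 3363 and 24933 TPM and Ryr2, the lowest of them, between 26.3 and 368 TPM. Atrial markers varied more widely, with Myl7 between 2.07 and 2907 TPM.

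Levels of the 9 genes were first set side by side per transcript length, in the libraries without the fall with length. Trim72 had the highest level, with a median of 161.98 TPM (71.3 to 274), and lay above Anxa6, the next gene, in 100% of these libraries. Anxa6 and Anxa5 followed with medians of 63.3 and 62.0 TPM, and their order could not be separated, since Anxa6 was the higher in 52.02% of libraries. Ahnak (median 42.6 TPM) exceeded Anxa2 (36.7 TPM) in 67.6%. Dysf had a median of 18.1 TPM (9.45 to 34.4), below Anxa2 in 100% of libraries and above Anxa1 (10.8 TPM) in 97.1%. Myof, at 2.18 TPM, and Ano5, at 0.531 TPM, were the lowest, and Ano5 was listed at 0 in 1 male library of KK/HlJ and 1 female library of 129X1/SvJ. The ferlin of mature muscle was thus measured at a higher level per length than its relative Myof in these hearts.

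The first question was whether the strains with Dysf mutations differed from the other strains. Dysf was at 48.5 CPM in the male and 43.6 CPM in the female A/J library. These were the lowest values of all libraries, and the next, a BXH6/TyJ female, stood at 56.1 CPM. SJL/J did not share this position, with 121.7 CPM in the male and 109.7 CPM in the female. For the test, counts were summed per strain over both sexes, and A/J and SJL/J were compared with 63 reference strains that had both sexes, AXB/BXA left out. The strain mean of Dysf was 46.05 CPM in A/J and ranged from 68.6 CPM (BXH6/TyJ) to 170 CPM (RIIIS/J), with a median of 84.6 CPM, in the reference. SJL/J, at 115.7 CPM, stood above 49 of the 63. The plot of Dysf by group shows both strains beside the families.

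**Figure D1:**
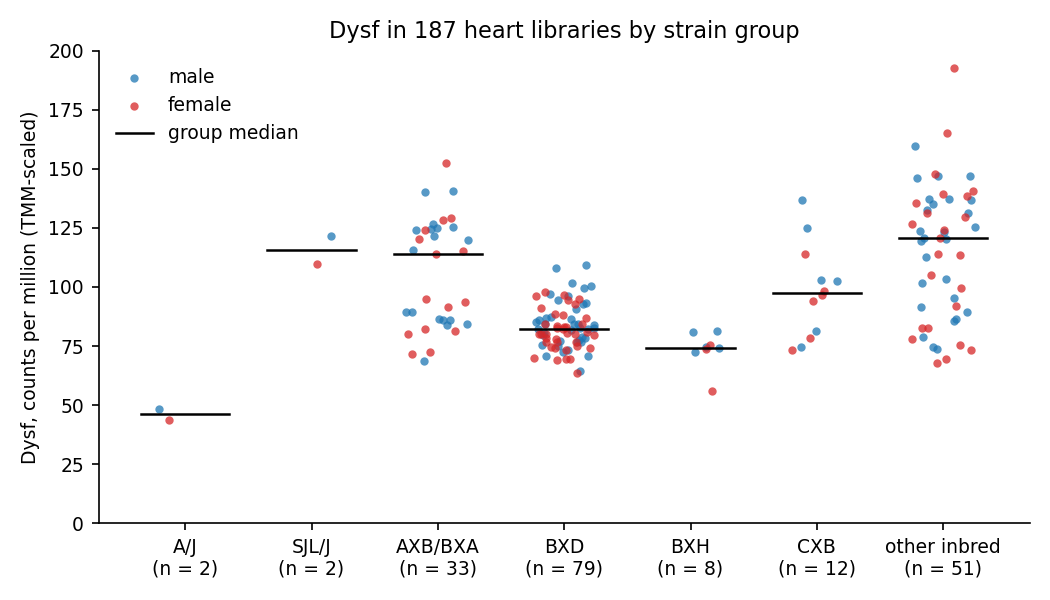
Dysf in TMM-scaled CPM in each heart library, by strain group, with males in blue, females in red and a black line at the group median. The A/J libraries (43.6 and 48.5 CPM) lie below all others, BXD libraries lie between 63.4 and 109.2 CPM, and AXB/BXA libraries fall into a lower and an upper set.

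In A/J, the log2 fold change of Dysf against the reference was -1.05 (SE 0.37, edgeR quasi-likelihood test, p = 0.0064). After adjustment over all 16116 genes it did not pass the threshold of 0.05 (edgeR, adjusted p = 0.999). The exact permutation of the strain labels gave p = 0.0156, two-sided, which is the smallest that 1 strain against 63 allows, and 0.422 after adjustment over the 27 such tests made. The difference between A/J and SJL/J was -1.32 (SE 0.48, edgeR, p = 0.0075, adjusted p = 1). SJL/J against the reference gave 0.26 (SE 0.32, edgeR, adjusted p = 0.9998), and both strains together -0.39 (SE 0.25, edgeR, adjusted p = 0.9999). The value in A/J was -0.55 at its smallest and -1.34 at its largest over 17 alternatives, negative in each and called in none, with adjusted p from 0.164 to 0.9999. Each strain entered as 1 strain sum, so the p-values rest on the spread between the reference strains, and each of A/J and SJL/J gave 1 library per sex.

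None of the 9 genes passed the threshold in A/J (edgeR called 0.0124% of all genes), in SJL/J (0.199%), in both together (0.0372%) or between A/J and SJL/J (0.0186%). At an unadjusted p under 0.05, edgeR had 1 of 9 in A/J (Dysf, 2.92% of all genes), 1 in SJL/J (Anxa5, 4.13%), 1 in both together (Ano5, 3.85%) and 2 between the strains (Dysf and Anxa5, 3.68%). DESeq2 also called 0 of the 9 in each of these comparisons, and at an unadjusted p under 0.05 it had 1 in A/J, 2 in SJL/J, 1 in both together and 2 between them. The median log2 fold change of the 9 was -0.11 in A/J and -0.08 in SJL/J, beside -0.03 and -0.03 over all genes.

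**Figure D2:**
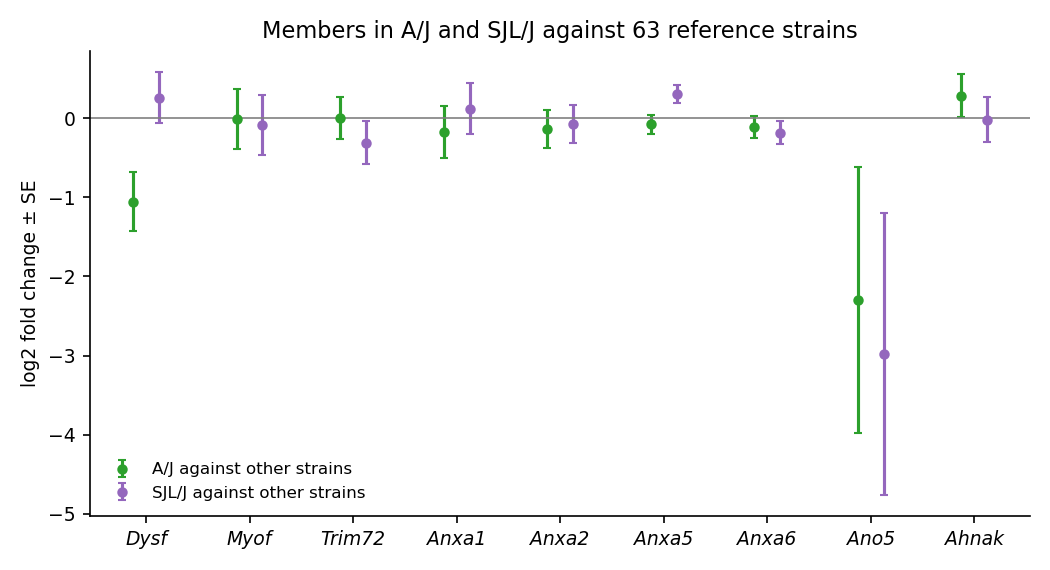
Log2 fold change (points) and its standard error (bars) of the 9 genes in A/J (green) and SJL/J (purple) against 63 reference strains, from the edgeR fit of strain sums. Dysf lies at -1.05 in A/J and 0.26 in SJL/J, and Ano5 lies lowest in both strains with the widest errors.

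Among the annexins, Anxa5 in SJL/J was the highest strain mean of the comparison. It was at 77.99 CPM in the male and 79.9 CPM in the female, a mean of 78.9 CPM, against 50.3 to 77.9 CPM in the 63 reference strains. The log2 fold change was 0.31 (SE 0.12, edgeR, p = 0.0087, adjusted p = 0.729), and the exact permutation gave p = 0.0312 (0.422 adjusted over 27). Single libraries of other strains reached higher, up to 85.8 CPM in a BXD14/TyJ male. In A/J, Anxa5 was at 54.8 CPM in the male and 63.0 CPM in the female. Anxa1, whose protein is also an anti-inflammatory mediator, was at 10.4 and 14.7 CPM in A/J and at 14.1 and 17.8 CPM in SJL/J, inside the reference range of 6.58 to 30.5 CPM. Anxa2, the partner of S100a10, was at 37.4 and 45.7 CPM in A/J and at 44.9 and 44.6 CPM in SJL/J. Anxa6, an annexin with a longer core than the others, was at 124.98 and 125.5 CPM in A/J and at 116.2 and 124.06 CPM in SJL/J. The strain means of these annexins lay within the reference ranges of 34.4 to 76.2 CPM (Anxa2) and 108.98 to 169.3 CPM (Anxa6).

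Trim72 was at 307 CPM in the male and 286 CPM in the female of A/J, and at 269 and 222 CPM in SJL/J, while the reference strains ranged from 170 to 399 CPM. Myof was at 8.51 and 9.20 CPM in A/J and at 6.12 and 10.2 CPM in SJL/J, with 30 and 18 of 63 reference strains lower. So the related ferlin stood in the middle of the range in the strain where Dysf was lowest. Ahnak was at 747 and 728 CPM in A/J, above 60 of the 63 reference strains, with a log2 fold change of 0.29 (SE 0.28, edgeR, adjusted p = 0.999). In SJL/J it was at 511 and 664 CPM. Of the 63, 9 strains include a library whose counts fell with length, and without them A/J still stood above 51 of 54.

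Ano5 was low in both strains, with 0.851 CPM in the male and 0.341 CPM in the female of A/J and 0.465 and 0.249 CPM in SJL/J. These values rest on 33, 22, 24 and 19 counts. The reference median was 2.05 CPM, and the range ran from 0.0156 CPM (129X1/SvJ) to 10.3 CPM (CXB11/HiAJ). The log2 fold changes were -2.30 (SE 1.68) in A/J and -2.98 (SE 1.78) in SJL/J (edgeR, adjusted p = 0.999 and 0.9998). Low Ano5 was shared with other inbred strains, of which 8 of 22 lay below A/J and 6 of 22 below SJL/J. The range of Ano5 over strains was wider than the distance of either strain from the median.

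A gene's estimated count divided by its TPM, scaled within a library, gives the mean length of the transcripts to which its reads were assigned. For Dysf this implied length was 4753 bases in the male and 4205 bases in the female A/J library, with a strain value of 4470.4 bases. The 54 reference strains without a fall of counts with length ranged from 4729 to 6448 bases with a median of 5543, so that A/J lay below all of them. The exact permutation gave p = 0.0182, the smallest that 1 against 54 allows, and 0.327 after adjustment over 18 such tests. Among single libraries without that fall the A/J female was the lowest, while a C57BLKS/J female, at 4341 bases, lay between it and the A/J male. SJL/J stood at 5906 bases, above 47 of 54. A place near the end of the range was not particular to Dysf. The implied length of Ahnak in A/J lay below 53 of 54 strains (exact permutation, p = 0.0364, adjusted p = 0.327). In SJL/J that of Anxa5 lay below 52 (exact permutation, p = 0.0545, adjusted p = 0.327) and that of Ano5 below 53. In A/J those of Anxa1 and Anxa5 lay above 52. On the TPM scale Dysf was at 12.3 and 13.1 TPM in A/J and 23.4 and 25.2 TPM in SJL/J, and the A/J values then overlapped with those of other strains, whose lowest library was at 9.45 TPM. All libraries were quantified against a single reference transcriptome, and the part of sequence differences between strains in these values was not tested.

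Other genes of the repair machinery were read in lists. Lists of the other ferlins (2 of 4 tested), the other annexins (6 of 8), S100 partners of annexins and Ahnak (7 of 7), dysferlin partners and caveolae (23 of 23), ESCRT repair (10 of 10), the dystrophin complex (18 of 18), other anoctamins (6 of 8), cardiac stress genes (12 of 12) and the neighbours of Dysf within 2 Mb (54 of 98) held 0 genes past the threshold in A/J, in SJL/J, in both together and between them, with edgeR and with DESeq2. At an unadjusted p under 0.05, edgeR had 5 genes of the 9 lists in A/J (3.62%, beside 2.92% of all genes), 6 in SJL/J (4.35%, beside 4.13%), 8 in both together (5.80%, beside 3.85%) and 3 between them (2.17%, beside 3.68%). For cardiac stress genes the median log2 fold change was -0.08 in A/J and -0.69 in SJL/J, and for the dystrophin complex 0.24 and -0.08. The neighbours of Dysf had medians of -0.05 and 0.03. The summed TPM of each of 10 cell type marker lists lay within the reference range in both strains. Fibroblast markers (5 genes) summed to 345 and 364 TPM in A/J and to 336 and 460 TPM in SJL/J, against 60.7 to 715 TPM in the reference. Macrophage markers (5 genes) summed to 48.7 and 49.8 TPM in A/J and to 56.1 and 69.7 TPM in SJL/J, against 6.47 to 120 TPM. Cardiomyocyte markers (6 genes) summed to 29190 and 35011 TPM in A/J. In RNA from heart tissue, fewer cells of a type and less RNA per cell cannot be told apart.

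The AXB/BXA strains were described next, since inbreeding leaves each with the A/J or the C57BL/6J allele at nearly every locus. Which of them carry the Dysf insertion of A/J was not known here. None of their 33 libraries was as low in Dysf as the A/J libraries. They ranged from 68.8 CPM (AXB19b/PgnJ, male) to 152.5 CPM (AXB5/PgnJ, female) with a median of 114.03 CPM. C57BL/6J, the other parent, was at 78.7 and 86.4 CPM in males and 78.04 CPM in the female. All 33 libraries thus exceeded A/J, 22 exceeded each C57BL/6J library and 3 lay below each of them. Of the 13 strains with both sexes, 10 lay above both parents, whose strain means were 46.05 and 80.3 CPM, and 3 lay between them. Those 3 were AXB19/PgnJ, AXB19a/PgnJ and AXB19b/PgnJ, by name sublines of 1 strain. In the BXD family, with parents DBA/2J at 96.8 CPM and C57BL/6J, 2 of 34 strains lay above both parents, 18 between them and 14 below.

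The AXB/BXA values of Dysf fell into 2 sets. In the lower set 16 libraries lay between 68.8 and 95.0 CPM, and in the upper set 17 lay between 114.03 and 152.5 CPM. The gap between the sets was 0.26 on the log2 scale, and the next largest gap between neighbouring libraries was 0.14, with at least 3 libraries on each side of any gap counted. In 13 of 13 strains with both sexes, the male and the female library lay on the same side of the gap. The gap was placed in these same libraries, so their agreement is a description and no separate support for 2 sets. The lower strains were AXB19/PgnJ (77.8 CPM), AXB19a/PgnJ (78.2 CPM), AXB19b/PgnJ (80.2 CPM), AXB15/PgnJ (83.2 CPM), AXB13/PgnJ (83.95 CPM), BXA8/PgnJ (91.4 CPM) and BXA2/PgnJ (92.2 CPM). By their names, the AXB19 strains are sublines of 1 strain, so that the 13 strains are not all independent lines. The upper strains were BXA7/PgnJ (114.9 CPM), BXA24/PgnJ (118.5 CPM), AXB12/PgnJ (120.1 CPM), BXA4/PgnJ (126.7 CPM), BXA11/PgnJ (127.9 CPM) and AXB5/PgnJ (146.2 CPM). In BXD the largest gap in Dysf between libraries was 0.04. Gaps in AXB/BXA as large as that of Dysf were found for Ano5 (0.69), Myof (0.30) and Ahnak (0.28), where 4, 3 and 4 of the 33 libraries lay below, and both libraries of a strain lay on the same side in 9, 11 and 12 of 13 strains. The sets were read from the values and were not tested.

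**Figure D3:**
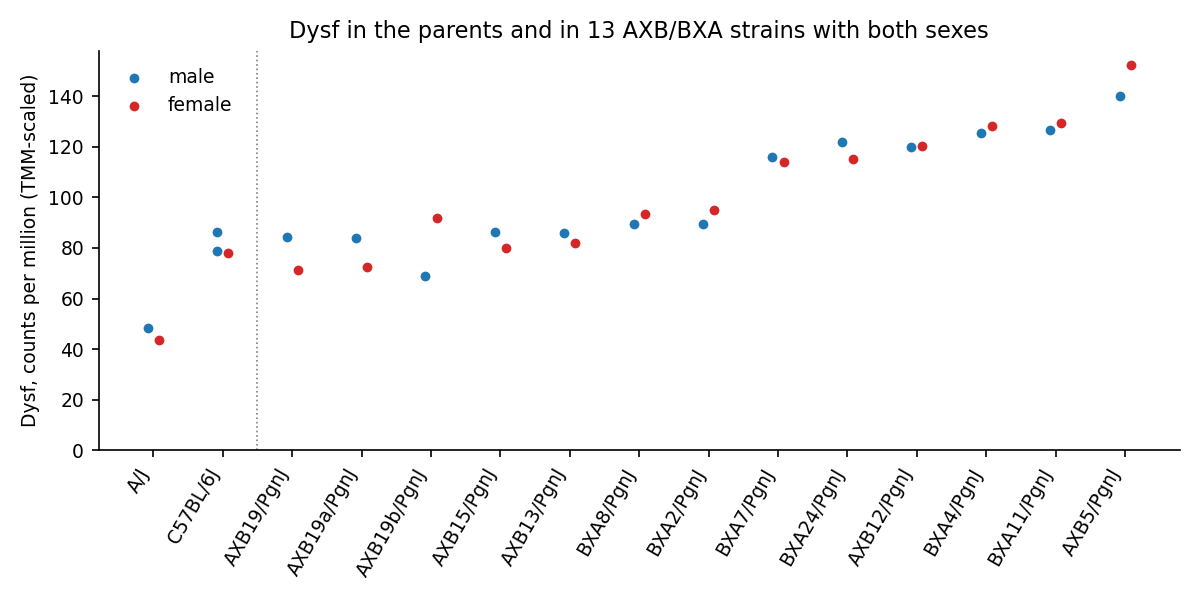
Dysf in TMM-scaled CPM in the male (blue) and female (red) libraries of both parents, left of the dotted line, and of the 13 AXB/BXA strains with both sexes, in order of their mean. The strains from BXA7/PgnJ onwards lie above 114.03 CPM, those before at 95.0 CPM or less, and all lie above A/J.

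Against the 34 BXD strains, Dysf was higher in the 13 AXB/BXA strains by 0.33 on the log2 scale (SE 0.06, edgeR, adjusted p = 3.28e-04). It was the only gene of the 9 that passed, where edgeR called 12.6% of all genes and 5.8% as higher. On log2(TPM + 1) the difference was 0.15 and not called (limma-trend, adjusted p = 0.302). With AXB19a/PgnJ and AXB19b/PgnJ left out Dysf was still called. Anxa6 was lower by 0.09 (SE 0.04, p = 0.018) and missed the adjusted threshold (edgeR, adjusted p = 0.101), and for the other 7 genes the log2 differences lay between -0.21 and 0.06. The SD of log2 Dysf between strains was 0.32 in AXB/BXA, 0.13 in BXD and 0.36 in other inbred strains. Ano5, low in A/J, ranged from 0.417 to 7.23 CPM in the AXB/BXA libraries, with 29 of 33 above both A/J libraries. Ahnak, high in A/J, lay below both A/J libraries in 28 of 33.

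In the lists, the dystrophin complex had 4 of 18 genes called between AXB/BXA and BXD, 2 in each direction, beside the 12.6% called over all genes. Sgcb (beta-sarcoglycan) was lower by 0.70 (SE 0.10, edgeR, adjusted p = 4.68e-06) and Sspn (sarcospan) was higher by 0.38 (SE 0.10, adjusted p = 0.0103). Sgca (alpha-sarcoglycan) was higher by 0.30 and Tln2 (talin 2) was lower by 0.16. Single genes were called lower among the other annexins (Anxa4, -0.12), S100 partners (S100a16, -0.24), caveolae (Cavin3, -0.22) and ESCRT genes (Chmp1a, -0.09). Of the cardiac stress genes Myh7, the slow myosin heavy chain, was lower by 1.53 (SE 0.45). None of the tested other ferlins or other anoctamins passed. Of the 54 tested neighbours of Dysf 6 were called, among them Mthfd2 (2.68 higher, SE 0.35), Spr-ps1 (0.68 higher), 1700003E16Rik (0.34 higher), Lbx2 (-0.69) and Eva1a (-0.20). Of these 14 named genes, Sgcb, Sgca, S100a16, Mthfd2, Spr-ps1 and Lbx2 were called in each of 7 alternatives. The calls of Anxa4, Chmp1a, Tln2 and Eva1a were lost on library totals, with no filter and on log2(TPM + 1), that of 1700003E16Rik on library totals and on log2(TPM + 1), and that of Sspn on log2(TPM + 1). Those of Cavin3 and Chmp1a were lost without the libraries whose counts fell with length (edgeR, adjusted p = 0.0770 and 0.0879). The calls of Myh7, Anxa4, Chmp1a and Tln2 were lost when AXB19a/PgnJ and AXB19b/PgnJ were left out, with Myh7 then at -1.35 (edgeR, adjusted p = 0.0536).

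The genes whose strain means were most like Dysf were sought among 13119 genes. Over the 13 AXB/BXA strains the 5 highest Pearson r were those of Spr-ps1 (0.947), Kbtbd12 (0.937), Ruvbl1 (0.924), Borcs5 (0.917) and Stambp (0.908). All 5 lie on chromosome 6, as Dysf does. Stambp starts 0.465 Mb before and Spr-ps1 1.14 Mb after the start of Dysf, Ruvbl1 4.46 Mb and Kbtbd12 4.54 Mb after, and Borcs5 50.6 Mb after. With Dysf in 2 sets, these r describe the same division of 13 strains and carry no test. Over the 63 reference strains the 5 highest were Ube2d-ps (0.741), Gpatch11 (0.731), Zfp868 (0.624), Spr-ps1 (0.618) and Slc1a4 (0.610). Spr-ps1, a pseudogene, was the only gene in both lists, and in the reference strains the r of the other 4 was 0.464 (Kbtbd12), 0.00995 (Ruvbl1), -0.07 (Stambp) and -0.375 (Borcs5).

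The variation between strains was then compared with that within 1 strain, for the 78 strains sampled in males and females. The term for strain passed for 8 of 9 genes, where edgeR called 73.1% of all genes. Dysf had the largest F of the 9 (14.4, adjusted p = 8.58e-26), and 319 of 14791 genes (2.16%) had a larger one. Ano5 (7.76, adjusted p = 6.40e-17), Anxa6 (4.39), Trim72 (3.41) and Anxa1 (3.27) followed. Anxa5 (2.02) and Anxa2 (1.79) lay near the median over all genes, 1.94. Ahnak (1.52, edgeR, adjusted p = 0.0419) lay lower, and 71.6% of genes had a larger F. Myof did not pass (1.44, adjusted p = 0.0680), but it was called without the libraries whose counts fell with length (F = 1.53, edgeR, adjusted p = 0.0462) and on log2(TPM + 1) (F = 1.65, limma-trend, adjusted p = 0.0162). Without A/J, SJL/J and AXB/BXA the F of Dysf was 12.6 and still called, so its spread between strains was also present among the remaining strains. Ahnak was then no longer called (edgeR, adjusted p = 0.115), nor was it on library totals (adjusted p = 0.118). In the lists 5 of 6 other annexins, 17 of 23 partners and caveolar genes and 13 of 18 dystrophin complex genes were called. Within the dystrophin complex Sgcb had the largest F (23.995), and among the partners Capn3 (16.3), a muscle calpain. Both tested other ferlins were called, Fer1l6 (24.9) and Fer1l5 (1.54), of which Fer1l5 was not called without A/J, SJL/J and AXB/BXA (F = 1.32, edgeR, adjusted p = 0.166).

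Agreement between the sexes was examined next. Over 78 strains the male and the female log2 CPM of Dysf correlated with Pearson r = 0.872 and Spearman rho = 0.787 (permutation, both adjusted p = 2.25e-05, from the smallest p that 100000 permutations can give). Without the 2 strains farthest from the median, r was 0.845. Within BXD it was 0.405 (34 strains) and within other inbred strains 0.855 (22 strains). For Ano5 r was 0.803 and rho 0.775, with 0.762 without the 2 farthest strains, and for Anxa6 r was 0.669 and rho 0.691, with 0.664. Trim72 had r = 0.577 (rho 0.531) over all strains, with 0.183 within BXD, 0.844 within AXB/BXA and 0.839 within other inbred strains. Anxa1 had r = 0.484 (rho 0.354), with 0.172 within BXD, 0.166 within AXB/BXA and 0.720 within other inbred strains. Values were lower for Anxa5 (r = 0.336, rho = 0.321, permutation, adjusted p = 0.00409 and 0.00654), Ahnak (0.282 and 0.279, adjusted p = 0.0177 and 0.0169) and Myof (0.267 and 0.177, adjusted p = 0.0214 and 0.123, so that rho did not pass). For Ahnak, r was 0.153 without the 2 farthest strains, and for Myof it was 0.204 and did not pass without the strains whose counts fell with length (permutation, adjusted p = 0.0939). Anxa2 gave r = 0.165 (permutation, adjusted p = 0.147) and rho = 0.247 (adjusted p = 0.0327). Its r was higher and passed without the strains whose counts fell with length (0.334, permutation, adjusted p = 0.00649) and on log2(TPM + 1) (0.397, adjusted p = 0.00054).

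**Figure D4:**
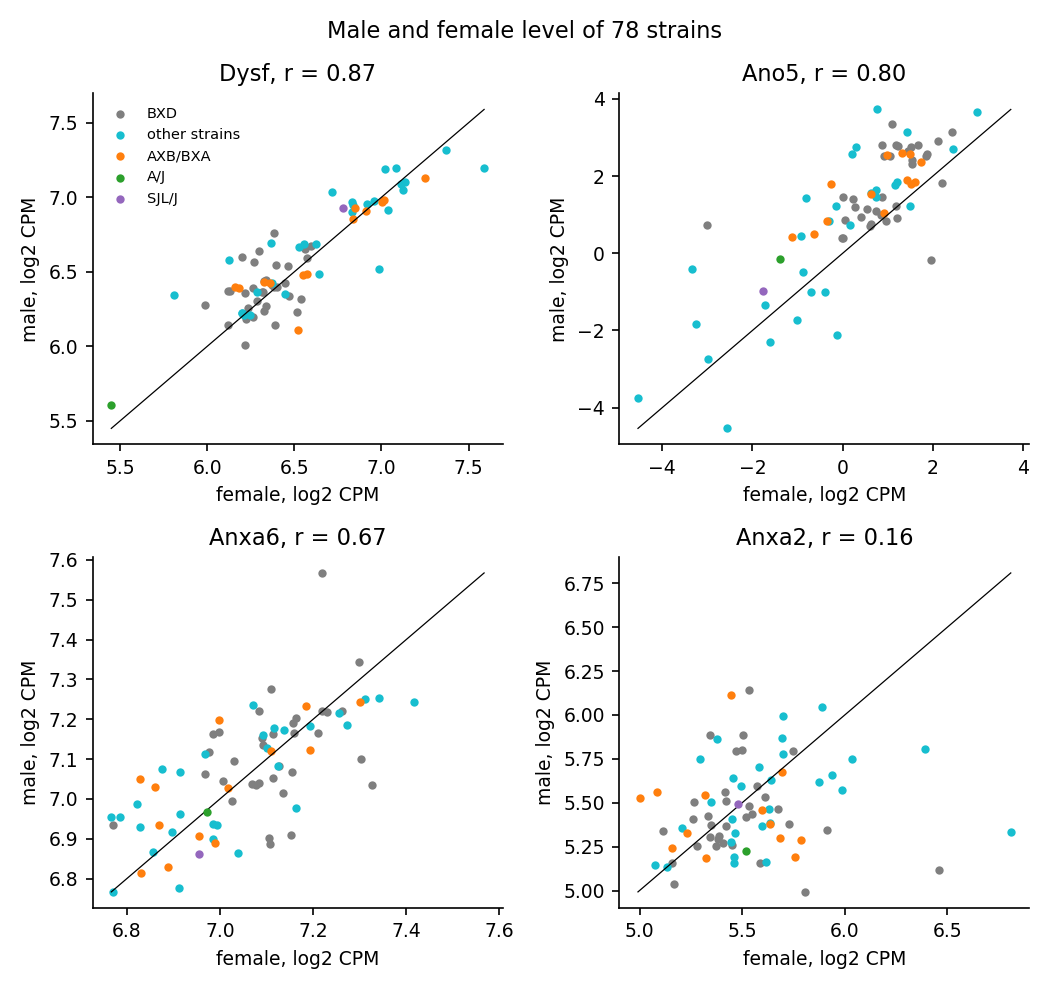
Log2 CPM of the male (vertical) against the female (horizontal) libraries of 78 strains for Dysf, Ano5, Anxa6 and Anxa2, with BXD in grey, AXB/BXA in orange, A/J in green, SJL/J in purple and other strains in cyan; the line marks equal values. Points of Dysf follow the line (r = 0.872), those of Anxa2 scatter around it (r = 0.165, and 0.334 without the strains whose counts fell with length), and most Ano5 points lie above it.

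Males and females were compared over all libraries. Trim72 was higher in males, with 164.4 to 485 CPM (median 323) in 98 male libraries and 107.6 to 401 CPM (median 270) in 89 female libraries. The ranges overlapped, and the male value was the higher in 70 of 78 strains. The log2 difference was 0.27 (SE 0.04, edgeR, adjusted p = 3.73e-07). Ano5 was also higher in males, with a median of 2.60 CPM (0 to 13.2) against 1.63 CPM (0 to 7.83) in females, a log2 difference of 0.92 (SE 0.19, edgeR, adjusted p = 7.30e-05), and in 67 of 78 strains. Ahnak was lower in males, at a median of 583 CPM (216 to 899) against 653 CPM (206 to 934), a log2 difference of -0.17 (SE 0.06, edgeR, adjusted p = 0.0152), with the male the higher in 25 of 78 strains. These 3 of 9 stand beside 26.4% of all genes called, 13.5% as higher and 12.8% as lower in males. They remained past the threshold, in the same direction, in each of 5 alternatives, with strain as a replicate block among them.

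Dysf did not pass the test between the sexes (0.06, SE 0.05, edgeR, adjusted p = 0.400), with a median of 89.3 CPM in males and 83.6 CPM in females. The log2 differences of Myof (-0.08), Anxa1 (-0.09), Anxa2 (-0.08), Anxa5 (-0.05) and Anxa6 (0.00) did not pass either. On library totals, where the median of all genes moved by -0.08, and on log2(TPM + 1), where it moved by -0.10, Anxa6 became lower in males (-0.08 and -0.12) and Dysf took a negative sign. On both of these scales Anxa1 (-0.17 and -0.19), Anxa2 (-0.16 and -0.17) and Anxa5 (-0.13 and -0.21) were called as lower in males, and on log2(TPM + 1) Myof was too (-0.13). A dependence of the sex difference on family was called for 0 of the 9 genes (edgeR, AXB/BXA, BXD and inbred strains, 0.00675% of all genes called, and 0 of 9 also at an unadjusted p under 0.05, where 1.96% of all genes were). For Ano5 it was 0.90 in AXB/BXA, 0.88 in BXD and 0.93 in inbred strains, and for Trim72 0.18, 0.29 and 0.34.

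**Figure D5:**
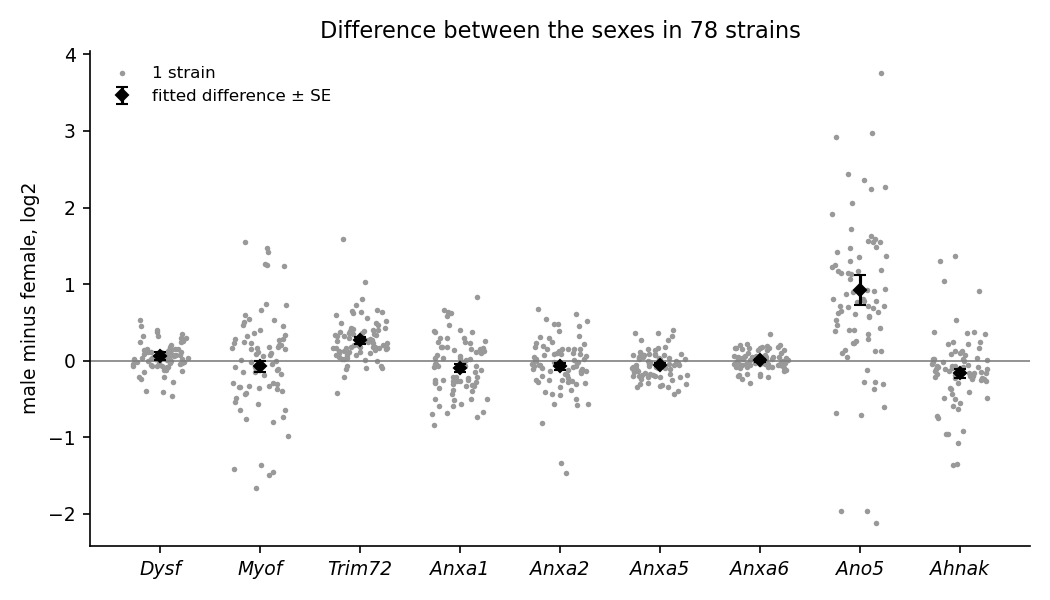
Male minus female difference on the log2 scale for the 9 genes, with a grey point for each of 78 strains and a black diamond with bars for the fitted difference and its standard error over all libraries. The fitted values of Trim72 (0.27) and Ano5 (0.92) lie above 0 and that of Ahnak (-0.17) below.

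Among related genes, 5 of 10 ESCRT genes, which close small membrane wounds by shedding, were higher in males, beside 13.5% of all genes, with Chmp4b at 0.13 (SE 0.02, edgeR, adjusted p = 1.51e-07) and Pdcd6 (ALG-2) at 0.10. None of the 5 was called as higher on library totals or on log2(TPM + 1). On log2(TPM + 1) Pdcd6, Chmp6, Chmp1a and Vps4a turned negative, and on library totals Vps4a did. Of 23 dysferlin partners and caveolar genes 5 were higher and 2 lower, among them Vamp7 (-0.52, on an unplaced scaffold of the assembly) and Cav3, the muscle caveolin (0.17). Of the 12 cardiac stress genes 5 were higher in males and none lower, with Gpnmb at 1.18 (SE 0.25), Spp1 at 0.86 (SE 0.21), Acta1 at 0.82 (SE 0.20), Ankrd1 at 0.58 (SE 0.10) and Xirp2 at 0.27 (SE 0.06). Among the dystrophin complex genes that were called, Dtna (0.12) was higher and Sgce (-0.11) was lower. Single genes were called among the other annexins (Anxa7, 0.06), the S100 partners (S100a10, -0.15) and the other anoctamins (Ano8, 0.13), and 0 of 2 other ferlins. Of the genes called as higher, Cav3, Cavin4, Smpd1, Pacsin3, Dtna, Anxa7 and Ano8 were not called on library totals or on log2(TPM + 1), and all of these but Cav3 turned negative on log2(TPM + 1). There Gpnmb, Spp1 and Xirp2 also lost the call, as did Spp1 with strain as a replicate block (0.37, edgeR, adjusted p = 0.0865), while Acta1 and Ankrd1 were called in each alternative. Anxa7 was not called without the libraries whose counts fell with length (edgeR, adjusted p = 0.0586), nor S100a10 by DESeq2 (adjusted p = 0.0515).

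Last, the 9 genes were set against each other over the strain means of the 63 reference strains. Of 36 pairs, 12 had an adjusted permutation p under 0.05 for Pearson r. The share among pairs of other genes was not measured, so this count has no background to be set against. The annexins formed part of these pairs. Anxa1 correlated with Anxa2 (r = 0.526, rho = 0.528, permutation, adjusted p = 0.000144 and 0.00072), with r = 0.534 without the 2 farthest strains and 0.393 within BXD. Anxa1 also correlated with Anxa5 (r = 0.472, rho = 0.485, adjusted p = 0.00054 and 0.00072), with 0.434 and 0.596 in the same order. Anxa2 and Anxa5 gave r = 0.346 (rho 0.365, adjusted p = 0.0221), with 0.429 without the 2 farthest strains and 0.561 within BXD. Anxa6 went the other way, with r = -0.435 against Anxa1 (rho -0.444) and -0.380 against Anxa2 (rho -0.321), but within BXD these were -0.24 and -0.04, and on log2(TPM + 1) they reversed to 0.475 and 0.527.

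Trim72 and Ano5, both higher in males, were also correlated over strains. Their r was 0.571 and rho 0.394 (permutation, adjusted p = 0.000144 and 0.00948), with 0.536 without the 2 farthest strains, 0.585 within BXD, 0.552 within other inbred strains and 0.525 on log2(TPM + 1). Dysf and Ano5 gave r = -0.531 (rho -0.272, adjusted p = 0.00012 for r and 0.114 for rho), with -0.50 without the 2 farthest strains, 0.02 within BXD and -0.56 within other inbred strains, so that it did not hold within BXD. On log2(TPM + 1) it was -0.206 and did not pass (permutation, adjusted p = 0.125). Dysf and Trim72 gave r = -0.343 but rho = 0.0546, with 0.313 within BXD and -0.46 within other inbred strains, so that the direction differed between families. It did not pass without the strains whose counts fell with length (-0.276, permutation, adjusted p = 0.110) or on log2(TPM + 1) (-0.05). For Dysf and Anxa2, r was 0.302 over all strains (rho 0.211), 0.169 without the 2 farthest and 0.228 without the strains whose counts fell with length (permutation, adjusted p = 0.202).

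Myof correlated with Anxa1 (r = 0.538, rho = 0.475, permutation, adjusted p = 0.00012 and 0.0018), with 0.642 within BXD and 0.605 without the strains whose counts fell with length. Myof and Ahnak, both long messages, gave r = 0.615 (rho 0.412), but 0.180 once those strains were left out. Anxa2 and Ahnak gave r = -0.315 (rho -0.264, permutation, adjusted p = 0.0383 for r and 0.119 for rho). This pair did not pass without those strains (-0.17, adjusted p = 0.388), and on log2(TPM + 1) it reversed to 0.480 (adjusted p = 0.000189). Without those strains 4 other pairs passed that had not passed over all strains. Ahnak with Ano5 went from -0.218 to -0.507, with Trim72 from -0.0154 to -0.436 and with Anxa5 from -0.0760 to -0.402, and Myof with Anxa2 went from 0.112 to 0.352 (permutation, adjusted p from 0.000792 to 0.0266). On log2(TPM + 1) all 3 of these pairs of Ahnak took the other sign, at 0.533 with Trim72, 0.571 with Anxa5 and 0.137 with Ano5, of which the last did not pass (permutation, adjusted p = 0.315).

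Myof also correlated with the markers of other cell types. Against the mean of 5 fibroblast markers it had r = 0.833 (rho 0.763, permutation, adjusted p = 0.00015), with 0.843 without the 2 farthest strains, 0.853 within BXD, 0.745 within other inbred strains and 0.718 without the strains whose counts fell with length. Against 5 macrophage markers r was 0.738 (rho 0.513), and 0.552 without those strains. Anxa1 had r = 0.569 (rho 0.634) with the fibroblast markers. Ahnak had 0.627 (rho 0.452) with them, but 0.211 without the strains whose counts fell with length. Dysf had r = -0.379 (rho -0.424, adjusted p = 0.0164) with 4 atrial markers, -0.39 within BXD and -0.42 within other inbred strains, but it did not pass without the strains whose counts fell with length (-0.35, permutation, adjusted p = 0.0715). Of 90 pairs of a gene and a marker list, 16 passed, and the share for other genes was not measured. The part of cell type content in the differences between strains was not tested.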

How the data were processed

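Heart RNA was sequenced as paired reads in 187 libraries, and the authors estimated counts and TPM with kallisto 0.46 against GRCm38.p6. The deposited estimated counts (34.1% of values not whole) and the deposited TPM are given per gene; how transcripts were summed is not given in the sources used here. GENCODE symbols were matched to 35935 of 36558 genes, and genes without one held 0.477% of counts. Counts were rounded, filtered with filterByExpr, scaled by TMM and tested with the quasi-likelihood test of edgeR 4.0.16 (R 4.3.3), with Benjamini-Hochberg adjustment over all genes and a threshold of 0.05. DESeq2 1.42.0 and limma 3.58.1 on log2(TPM + 1) or log2(TPM + 0.1) were alternatives. A/J and SJL/J were each compared as 1 strain sum, assumed to vary like the 63 reference strains. Correlations used 100000 permutations. C57BL/6J males, CXB6/ByJ females and MA/MyJ males had 2 libraries each, which the labels do not say came from separate mice, and no libraries held identical values. Nothing in the labels says how the mice of a strain were housed or handled, so p-values measure only the spread between these samples. The fits were also run on simulated counts with known changes, and the outcome is not given here. The 9 genes and all lists were chosen with earlier results of these data known. Named are all 9 genes, from each list the genes past the threshold, largest first and at most 5, and the 5 genes most like Dysf. The alternatives of leaving out the libraries whose counts fell with length and of taking the length slope as a covariate were chosen after seeing the data.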

Additional observations from a re-analysis of the deposited data

Results flagged for a closer look

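Dysf in the BXH6/TyJ female, at 56.1 CPM, was the lowest of the 8 BXH libraries, whose median was 74.3 CPM and whose highest value was the BXH6/TyJ male at 81.2 CPM. The gap between this library and the next higher one was large for the range of the group by Dixon's test. Chance picks out about 1 in 20 groups by this measure for a single gene. The measure was applied to all 9 genes at both ends of the BXH group, so that a flag somewhere is less rare. This was the only value flagged.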

How the results depend on the processing

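None of the 9 genes was called in A/J, in SJL/J, in both together or between them under any alternative run, while signs of values that were not called changed 19 times for both together, 23 for A/J, 20 for SJL/J and 8 between them. Counts over all genes moved. For both strains together the count was 6, with 36 by DESeq2, 2 on library totals, 3 with no filter, 69 with single libraries, 0 in males, 3 in females, 0 against other inbred strains, 3 with AXB/BXA in the reference, 15 without the libraries whose counts fell with length and 10 with the length slope as a covariate; leaving out 1 library gave 5 to 18 (18 without the A/J male, 12 without the SJL/J male). For A/J the count was 2, with 4 by DESeq2, 4 on library totals, 11 with no filter, 9 with single libraries, 1 in males, 5 in females, 1 against other inbred strains, 0 with AXB/BXA in the reference, 7 without those libraries and 5 with the covariate; leaving out 1 library gave 2 to 25 (25 without the A/J male, 4 without the A/J female). For SJL/J it was 32, with 56 by DESeq2, 13 on library totals, 49 with no filter, 18 on log2(TPM + 1), 5 on log2(TPM + 0.1), 103 with single libraries, 21 in males, 8 in females and 3 against other inbred strains; leaving out 1 library gave 32 to 64 (64 without the SJL/J female). Between the strains it was 3, with 11 by DESeq2, 0 on library totals, 1 on log2(TPM + 0.1), 29 with single libraries, 0 in males, 1 in females, 0 against other inbred strains, 9 without those libraries and 6 with the covariate; leaving out 1 library gave 0 to 14 (14 without the A/J male, 0 without the A/J female, 9 without the SJL/J male, 6 without the SJL/J female). The median of all genes moved by 0.11 (library totals) and 0.18 (log2(TPM + 1)) for both strains, by 0.07 and 0.17 for A/J and by 0.15 and 0.18 for SJL/J. AXB/BXA against BXD had 2017 genes (930 higher, 1087 lower), 1151 on library totals (333 and 818), 777 on log2(TPM + 1) (192 and 585) and 760 on log2(TPM + 0.1). Sex had 3902 genes (2001 higher, 1901 lower), 6936 on log2(TPM + 1) (211 and 6725), and on library totals 425 higher and 5277 lower. With strain as a replicate block, which pairs the male with the female of a strain, 4857 genes were called, Trim72 was at 0.28, Ano5 at 0.87 and Ahnak at -0.13 (edgeR, adjusted p = 0.0494), and the block turned Mthfd2 to 0.024 but no call of the 9 genes. Differences between the sexes reversed on library totals for Anxa6 (-0.077), Anxa7 (-0.018) and Vps4a (-0.033), and on log2(TPM + 1) for Anxa6 (-0.12), Anxa7 (-0.068), Vps4a (-0.071), Cavin4 (-0.0039), Smpd1 (-0.021), Pacsin3 (-0.024), Pdcd6 (-0.014), Chmp6 (-0.11), Chmp1a (-0.035), Dtna (-0.037), Ano8 (-0.0052) and Bola3 (-0.012). Of 36 correlations between the genes 12 passed, and 29 on log2(TPM + 1), where Anxa1 with Anxa6 (0.475), Anxa2 with Anxa6 (0.527) and Anxa2 with Ahnak (0.480) reversed. Of 90 with marker lists 16 passed, and 10 without the strains whose counts fell with length, where Myof with skeletal muscle (0.0511), Ahnak with cardiomyocyte (0.281) and Ahnak with skeletal muscle (0.0497) reversed. The cause was not tested. Among genes named from the lists, 27 alternative values (27.6%) lost the call between AXB/BXA and BXD, 20 (15.7%) between the sexes and 4 (2.38%) for strain; an adjusted p that DESeq2 left missing was not counted. Ano5 in A/J and SJL/J rests on few counts, and 2 libraries per strain limit both comparisons.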
